A study of Bos taurus with 252 samples.

Results

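The genes described here are 38 genes of T-cell receptor signaling, taken by symbol from a count table of 33282 bovine genes. They comprise 4 receptor chains (CD3D, CD3E, CD3G, CD247), 7 coreceptors and accessory receptors (CD4, CD8A, CD8B, CD2, CD5, CD6, PTPRC), 4 costimulatory and inhibitory receptors (CD28, ICOS, CTLA4, PDCD1), 5 kinases (LCK, FYN, ZAP70, TXK, PRKCQ), 8 adaptors and effectors (LAT, LCP2, GRAP2, NCK1, VAV1, PLCG1, RASGRP1, TRAT1), BCL10 and MALT1, 3 NFAT factors (NFATC1, NFATC2, NFATC3) and 5 negative regulators (CSK, PAG1, CBLB, PTPN22, UBASH3A). All 38 were present and all 38 passed the filter on low counts. The table gives no coordinates, so genes are named by symbol alone. The list was drawn up from known function, but with earlier results of these data known. Several of its genes also belong to pathways that the study picked from these same steers (MALT1, PRKCQ, ZAP70, CD3G, NFATC2, PAG1, BCL10 and NCK1). Their direction on day 3 is therefore not independent evidence.

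When a T cell meets its antigen, the kinase LCK, held ready by the phosphatase PTPRC (CD45) and held back by the kinase CSK, phosphorylates the CD3 and zeta (CD247) chains of the receptor. ZAP70 docks there and phosphorylates the scaffolds LAT and LCP2 (SLP-76), on which PLCG1, VAV1, NCK1 and GRAP2 gather. The signal then divides into a calcium branch that brings NFAT factors into the nucleus, a Ras branch through RASGRP1, and a branch through PRKCQ, BCL10 and MALT1 that activates NF-kB. In cattle blood, T cells include a large gamma delta population that carries WC1 receptors on its surface.

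Whole blood RNA of 42 crossbred steers, split evenly over 7 groups of 6, was sequenced from blood taken on day 0 and again 3, 7, 14, 21 and then 56 days later, with 1 library for each steer and day. NC steers received no antimicrobial, and the others received a single dose, after the day 0 blood was drawn, of the macrolide tulathromycin (TULA) or tildipirosin (TILD), the tetracycline oxytetracycline (OXYT), the fluoroquinolone enrofloxacin (ENRO), florfenicol (FLOR), or the cephalosporin ceftiofur (CEFT). The study asked how these drugs, given at feedlot arrival against bovine respiratory disease, affect expression in the blood of healthy cattle. All steers, NC included, had earlier been given tildipirosin, a trenbolone acetate and estradiol implant, antiparasitics and vaccines at the start of backgrounding, so NC steers are not free of earlier antimicrobial exposure. Each group was kept in its own single pen, and after day 0 the order of handling was always the same, with NC first and OXYT last. The NC and ENRO steers were all sequenced on lane 1, the TULA steers on lane 2 and the CEFT and OXYT steers on lane 3, whereas 2 FLOR steers were on lane 1 and 4 on lane 2, and 4 TILD steers were on lane 2 and 2 on lane 3. Treatment thus cannot be told apart from pen and handling order in any comparison with NC, or from lane for CEFT, OXYT, TILD and TULA, none of whose steers shared a lane with NC.

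Library totals ranged from 26.1 to 74.1 M (mega) counts with a median of 43.6 M, and hemoglobin genes took between 0.00393% and 25.4% of a library with a median of 0.898%. Levels are given as CPM, the counts of a gene per M counts of its library after TMM scaling. The library medians of the members ran from 2.75 CPM for CTLA4 to 913 CPM for PTPRC, and since CPM is not adjusted for transcript length, levels are compared between samples of a gene and not between genes. The defining T-cell chain CD3E was measured at 346 CPM or more in every library. The lowest counts were found for NFATC3, which was listed at 0 in its lowest library and at 72.6 CPM in its highest, for CTLA4 with 32 counts in its lowest library and for CD3G with 49. In whole blood, fewer cells of a type and less RNA per cell cannot be told apart.

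On day 0, before dosing, no member was called in any of the 6 comparisons with NC by edgeR's quasi-likelihood test with Benjamini-Hochberg adjustment and an adjusted p (FDR) threshold of 0.1, and between 2 (ENRO and TILD) and 8 (FLOR) members had an unadjusted p under 0.05. Of all genes tested, 0.00525% were called in CEFT, 0.00525% in ENRO, 0.0157% in TILD and 0% in each of the others. DESeq2 called 1 member over the 6 comparisons. The median log2 difference of the 38 members from NC was nonetheless below 0 in all 6 groups, from -0.06 in ENRO to -0.17 in OXYT, whereas the median of all genes tested lay between -0.01 and 0.01. These comparisons all rest on 1 set of 6 NC steers, on this day and on every later one.

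On day 3, members were called in 5 of the 6 treatments, and every member called was lower than in NC. CEFT had 7 called members (PTPRC, ZAP70, NCK1, RASGRP1, MALT1, NFATC2 and PAG1) where 3.53% of all genes were called lower and 8% in either direction. ENRO had 4 (PTPRC, NCK1, NFATC2 and PAG1) against 1.27% of all genes called lower and 2.52% in either direction. FLOR had 4 (CTLA4, NFATC2, PAG1 and PTPN22) against 1.61% and 2.14%, OXYT had 7 (CD3G, PTPRC, ZAP70, PRKCQ, MALT1, NFATC2 and PAG1) against 1.13% and 2.31%, and TILD had 4 (PTPRC, MALT1, NFATC2 and PAG1) against 1.53% and 2.48%. TULA had none, and 0 of all genes were called there, although 1552 genes and 6 members had an unadjusted p under 0.05 and DESeq2 called 4 members. The members called were mostly enzymes, adaptors and regulators of the pathway, and of the 4 receptor chains CD3G was called, in OXYT alone. The median log2 fold change of the 38 members was -0.33 in OXYT, -0.18 in FLOR, -0.17 in TILD, -0.11 in ENRO, -0.10 in TULA and -0.07 in CEFT, where the median of all genes lay between -0.02 and 0.00. Members whose 6 treated and 6 NC steers did not overlap numbered 5 in OXYT (1.83% of all genes), 5 in CEFT (3.58%), 4 in TILD (2.5%), 3 in FLOR (2.41%), 3 in ENRO (2.18%) and 2 in TULA (0.698%). The map of log2 fold changes by day shows the called members in the day 3 block.

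**Figure D1:**
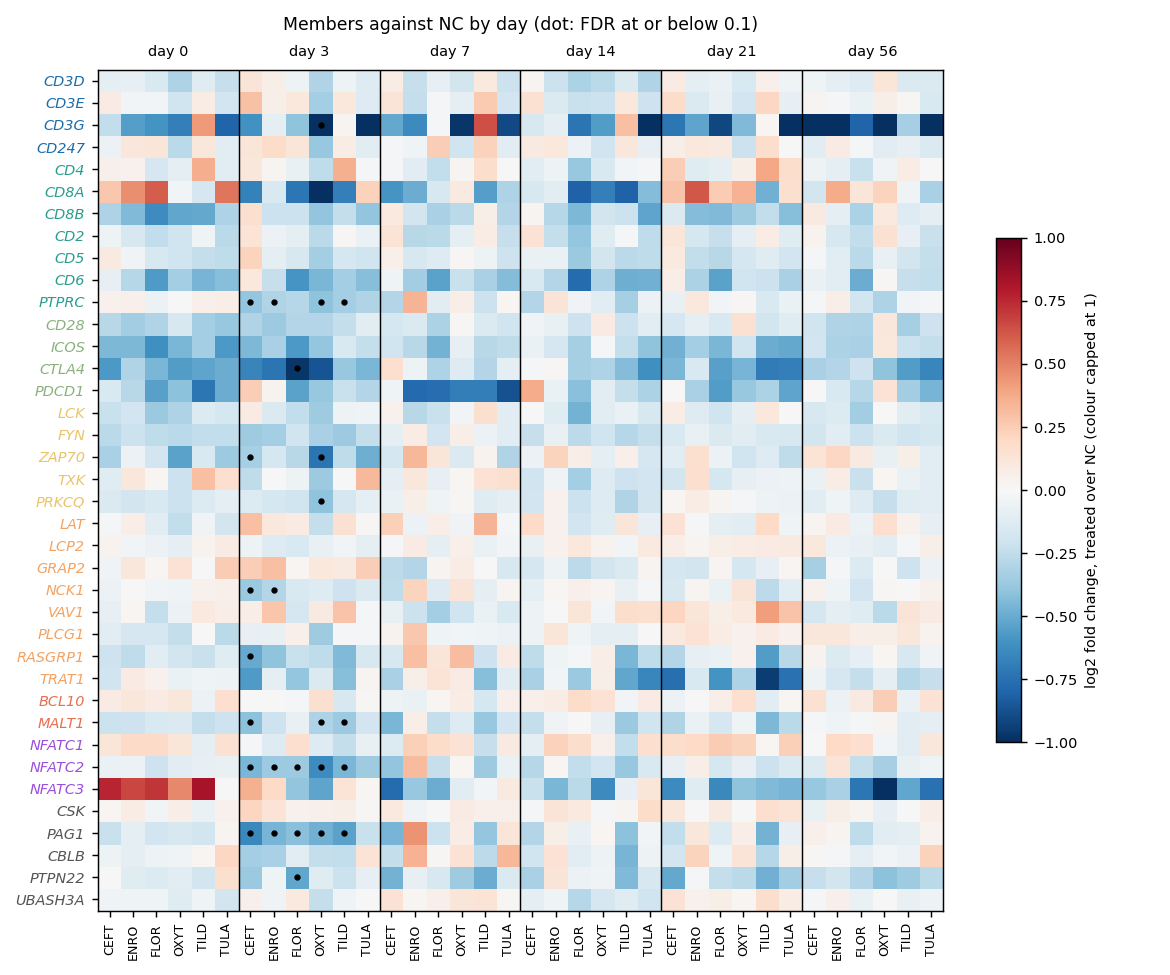
The heat map gives the log2 fold change of each of the 38 members (rows, labels coloured by role) in each treatment over NC on each day (columns), capped in colour at 1, with a dot where the FDR was 0.1 or lower. All dots lie on day 3 and all are on the lower side, with 7 each in CEFT and OXYT and 4 each in ENRO, FLOR and TILD.

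The transcription factor NFATC2 carries the calcium signal into the nucleus. On day 3 its level in the 6 NC steers had a lowest value of 76.5 CPM, a median of 83 and a highest of 94.5. Medians of the treated groups were 56.2 CPM in OXYT, 59.8 in CEFT, 61.8 in TILD, 65.3 in ENRO, 68.3 in TULA and 68.6 in FLOR. The highest treated steer, in FLOR, stood at 75.3 CPM, so every one of the 36 treated steers lay below every NC steer. The log2 fold change was largest in OXYT at -0.63 (SE 0.08, FDR 0.0228), and was -0.45 in TILD (SE 0.07, FDR 0.0451), -0.45 in CEFT (SE 0.08, FDR 0.0456), -0.37 in FLOR (SE 0.09, FDR 0.0884) and -0.36 in ENRO (SE 0.07, FDR 0.0519). In TULA it was -0.35 (SE 0.07) with an FDR of 0.221, which did not pass. The related factors NFATC1 and NFATC3 were called in no treatment.

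PAG1 is the membrane adaptor that anchors CSK next to the receptor. NC steers on day 3 had 170 CPM at the lowest, 183 at the median and 211 at the highest. CEFT steers ran from 77.7 to 141 CPM, ENRO steers from 124 to 148, FLOR steers from 132 to 146, OXYT steers from 114 to 150 and TILD steers from 93.4 to 149, all below the lowest NC steer. TULA steers, from 115 to 211 CPM, overlapped with NC and were not called (log2 fold change -0.23, SE 0.13, FDR 0.698). The log2 fold changes of the other treatments were -0.64 in CEFT (SE 0.13, FDR 0.0508), -0.53 in TILD (SE 0.12, FDR 0.0780), -0.48 in OXYT (SE 0.08, FDR 0.0418), -0.46 in ENRO (SE 0.08, FDR 0.0378) and -0.42 in FLOR (SE 0.07, FDR 0.0213). Among the other negative regulators, the phosphatase PTPN22 was called in FLOR, where steers ran from 24 to 39.7 CPM with a median of 30.1 against 38.1 to 54.3 with a median of 43.6 in NC. These groups overlapped at their edges, with a log2 fold change of -0.52 (SE 0.12, FDR 0.0797). CSK, CBLB and UBASH3A were called nowhere on day 3.

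PTPRC encodes CD45, which is found on all nucleated blood cells and not on T cells alone. In NC it lay between 1046 and 1232 CPM on day 3 with a median of 1164. Treated medians were 895 CPM in OXYT, 917 in CEFT, 925 in TILD, 935 in ENRO, 971 in TULA and 981 in FLOR. ENRO was the single group that overlapped with NC, through a highest steer of 1057 CPM. The log2 fold change was -0.40 in OXYT (SE 0.08, FDR 0.0622), -0.39 in CEFT (SE 0.09, FDR 0.0612), -0.34 in TILD (SE 0.08, FDR 0.0851) and -0.30 in ENRO (SE 0.08, FDR 0.0977). In FLOR it was -0.28 (SE 0.08, FDR 0.109) and in TULA -0.30 (SE 0.07, FDR 0.459), neither of which passed the threshold of 0.1.

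MALT1, the protease that works with BCL10 in the NF-kB branch, had a median of 172 CPM in NC on day 3, with a range from 149 to 195. It was called in CEFT, where steers ran from 120 to 147 CPM with a median of 129 (log2 fold change -0.41, SE 0.08, FDR 0.0456). It was also called in TILD, from 128 to 142 CPM with a median of 133 (-0.36, SE 0.07, FDR 0.0573), and in OXYT, from 128 to 162 CPM with a median of 138 (-0.31, SE 0.08, FDR 0.0991). The CEFT and TILD steers lay below all NC steers and the OXYT steers overlapped with them. BCL10 was called in no treatment. PRKCQ, the kinase upstream of both, was called in OXYT, where steers ran from 88.7 to 122 CPM with a median of 103, against 117 to 162 with a median of 136 in NC, and the groups overlapped (log2 fold change -0.40, SE 0.10, FDR 0.0980).

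ZAP70, the kinase that binds the phosphorylated receptor, was lowest in OXYT. Its levels there ran from 165 to 233 CPM with a median of 199. Those of NC ran from 266 to 399 with a median of 325, so that the groups did not overlap (log2 fold change -0.73, SE 0.11, FDR 0.0400). Before dosing, on day 0, the medians were already 195 CPM in OXYT and 304 in NC. The change of ZAP70 from day 0 to day 3 in OXYT was not called against that of NC. In CEFT, from 234 to 314 CPM with a median of 255, the groups overlapped and the log2 fold change was -0.33 (SE 0.10, FDR 0.0972). The kinases LCK, FYN and TXK were not called in any treatment.

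CD3G, the gamma chain of CD3, was called in OXYT on day 3, with steers from 2.93 to 9.42 CPM and a median of 4.61, against 9.26 to 21.3 CPM and a median of 14.5 in NC (log2 fold change -1.53, SE 0.27, FDR 0.0418). One treated steer overlapped with NC. TULA steers, with a median of 5.76 CPM, gave a difference of similar size that did not pass (-1.23, SE 0.31, FDR 0.459). The partner chains had log2 fold changes in OXYT of -0.30 for CD3D (SE 0.12, FDR 0.235), -0.34 for CD3E (SE 0.13, FDR 0.202) and -0.38 for CD247 (SE 0.15, FDR 0.224), and none of them was called. CD3G had far fewer counts than its partners, as given above, and the split of reads among transcripts of CD3G and neighbouring genes by the assembly step was not tested.

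Among the adaptors, NCK1, which links the receptor to the actin cytoskeleton, ran from 36.4 to 55.5 CPM in CEFT (median 47.4) and from 45.8 to 54.2 in ENRO (median 49.8), below all NC steers at 55.6 to 66.1 CPM (median 59.3). The log2 fold changes were -0.37 (SE 0.10, FDR 0.0767) and -0.29 (SE 0.07, FDR 0.0688). RASGRP1, the activator of Ras, had a median of 98.0 CPM in CEFT (64.5 to 124) against 144 in NC (102 to 151), with overlapping groups and a log2 fold change of -0.50 (SE 0.15, FDR 0.0808). LAT, LCP2, GRAP2, VAV1, PLCG1 and TRAT1 were not called. The inhibitory receptor CTLA4 was called in FLOR, at a median of 1.96 CPM (1.83 to 3.76) against 4.91 in NC (2.67 to 5.84), with overlap and a log2 fold change of -0.98 (SE 0.24, FDR 0.0914). The remaining members, namely CD4, CD8A, CD8B, CD2, CD5, CD6, CD28, ICOS and PDCD1, were called in no treatment on day 3.

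**Figure D2:**
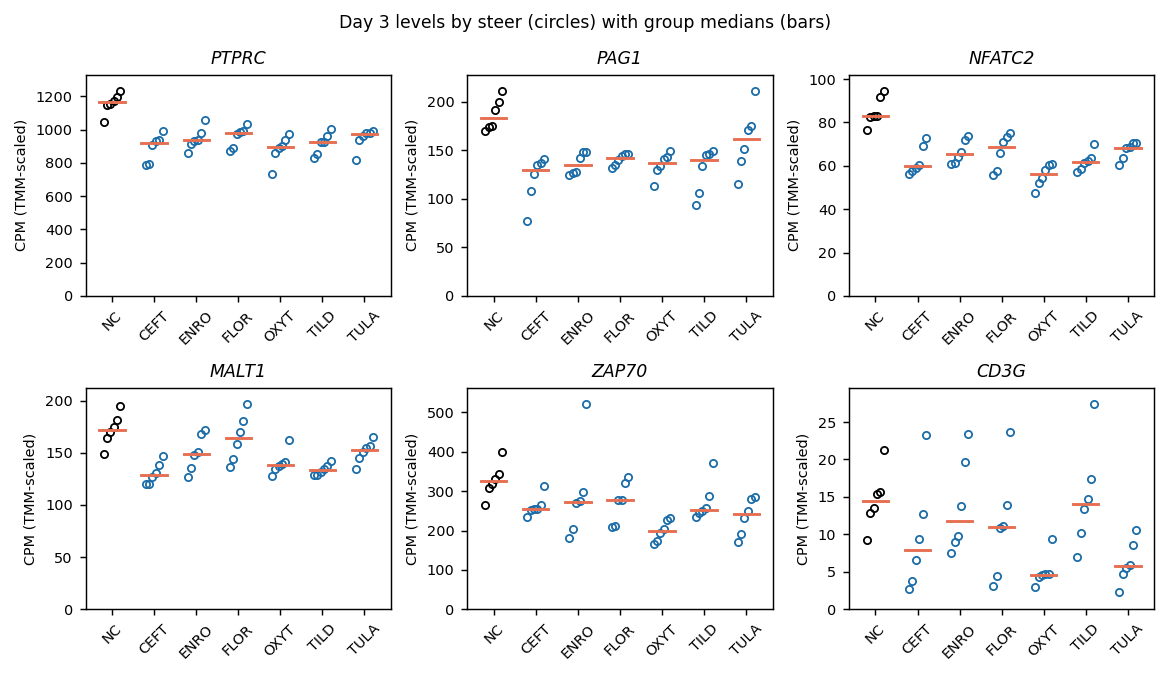
Day 3 levels of 6 members, chosen after their values were seen, are plotted in TMM-scaled CPM for each steer (circles, black for NC) with the median of each group (bar). For NFATC2 all 36 treated steers lie below the lowest NC steer at 76.5 CPM, and for CD3G the OXYT group has the lowest median at 4.61 CPM.

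Each steer was also set against its own day 0. In the NC steers alone, no member was called between day 0 and day 3 by edgeR's quasi-likelihood test (0.0262% of all genes were), and 5 had an unadjusted p under 0.05. NFATC2 was higher on day 3 than on day 0 in 6 of 6 NC steers, by a mean of 0.13 on the log2 scale (SD 0.09), and PTPRC in 5 of 6, by 0.09 (SD 0.07). In OXYT, NFATC2 was lower in 6 of 6 steers, with a mean change of -0.38 (SD 0.07), and PTPRC in 6 of 6 (-0.31, SD 0.14). PAG1 had a mean change of 0.00 in NC (SD 0.16) and of -0.44 in CEFT (SD 0.26), where it was lower in 6 of 6 steers. When the change from day 0 was itself compared with the change in NC, with each steer as its own block, PTPRC in CEFT was called on day 3, with a difference of -0.42 (SE 0.11, FDR 0.0740), and no other member was called in any treatment on that day. In that comparison 1.92% of all genes were called for CEFT, and 0.782% with a change lower than in NC.

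The day 3 calls lay close to the threshold, and 1 steer could decide them. For CEFT, the count of 7 became 0 without NC replicate 7, 12 or 15, became 3 without NC replicate 13 or CEFT replicate 5 or 6, and was between 5 and 10 otherwise. For ENRO, the count of 4 became 1 without NC replicate 7, 12 or 15 or ENRO replicate 5 or 8, 2 without NC replicate 13 or ENRO replicate 9 or 10, and 7 without ENRO replicate 6. For FLOR, it fell from 4 to 1 without NC replicate 1, 7, 12, 13 or 15 or FLOR replicate 8 or 10, and to 2 without NC replicate 5 or FLOR replicate 3, 4 or 6. For OXYT, it fell from 7 to 2 without NC replicate 7 and to 4 without NC replicate 12, 13 or 15 or OXYT replicate 2, 5 or 9. For TILD, it fell from 4 to 0 without NC replicate 7 or TILD replicate 5, to 1 without NC replicate 12 or 15 or TILD replicate 2 or 10, and to 2 without NC replicate 13. PAG1 in ENRO and FLOR and NFATC2 and ZAP70 in OXYT kept their calls without any of the 12 steers in turn. PRKCQ in OXYT lost its call in all 12 fits that left out 1 steer. PTPN22, NFATC2 and CTLA4 in FLOR and MALT1 in OXYT lost theirs in 10 of 12. ZAP70 in CEFT and PTPRC in ENRO and TILD lost theirs in 9 of 12. The fold changes moved less than the calls, and NFATC2 in OXYT stayed between -0.66 and -0.59.

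Sequencing lane bears on the same counts. Adjustment of the counts by lane with ComBat_seq, which has no term for treatment, left 0 called members in CEFT, FLOR, OXYT and TILD. The same was true of 1 fit of all 42 day 3 libraries with lane as a term. That term rests on FLOR and TILD alone, the groups split over lanes (2 FLOR steers on lane 1, 2 TILD steers on lane 3). For groups with no steer on the lane of NC, neither count can therefore tell lane from treatment. In the fit with the lane term, the log2 fold change of NFATC2 was -0.51 in CEFT, -0.33 in FLOR, -0.68 in OXYT and -0.45 in TILD, and that of PAG1 was -0.50, -0.44, -0.34 and -0.52. The fold change of CD3G in OXYT moved from -1.53 to -3.79 with the lane term and to -1.33 after ComBat_seq. After ComBat_seq, NFATC2 was at -0.24, -0.23, -0.43 and -0.26 in these groups, and PAG1 at -0.43, -0.33, -0.26 and -0.38. ZAP70 in CEFT moved from -0.33 to -0.09 after ComBat_seq and to -0.54 with the lane term, ZAP70 in OXYT to -0.59 and -0.93, and MALT1 in OXYT from -0.31 to -0.13 and -0.37. PTPRC stood after ComBat_seq at -0.22 in CEFT, -0.23 in OXYT and -0.22 in TILD, and MALT1 at -0.25 in CEFT and -0.21 in TILD. ENRO shared lane 1 with NC, and there NFATC2 stood at -0.33 after ComBat_seq and at -0.37 with the lane term, both still called, as was PAG1 at -0.45 and -0.47.

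Markers of other blood cells were set beside these results, as the sum of the CPM of each list. Neutrophil markers (10 genes) summed on day 3 to 1375 to 2079 CPM in NC, with a median of 1639, and to medians of 3072 in ENRO, 2798 in OXYT, 2491 in TILD, 1701 in TULA, 1650 in FLOR and 1504 in CEFT. One neutrophil marker, S100A9, was called higher in ENRO, OXYT and TILD. A sum is carried mostly by its most abundant genes. Taken singly, 4 of the 10 markers were below NC in ENRO and 4 in OXYT. The 5 markers of WC1 gamma delta cells summed to 158 to 389 CPM in NC and to 89.9 to 167 in OXYT, the group in which ZAP70 and CD3G were lowest, and none of these 5 was called. Of these 5, 3 were below NC in OXYT on day 3, and all 5 were on day 0 (median log2 difference -0.68). The 10 B-cell markers had medians of 1422 CPM in NC and 1519 to 2207 in the treated groups, and of these CD79A was called higher in FLOR (0.47, FDR 0.0764). The other cell lists are given here for OXYT alone, where none of their genes was called on day 3. Below NC there were 0 of 9 monocyte (median log2 difference 0.62) and 8 of 9 NK and cytotoxic markers (-0.48). So were 1 of 7 platelet (0.69), 4 of 6 eosinophil and basophil (-0.12) and 8 of 8 erythroid markers (-2.01). All 8 erythroid markers were below NC in OXYT on day 0 too (-1.69). The part of these differences in the day 3 results was not tested.

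Of 59 other genes of the pathway, from a list drawn up by known function, 7 were called lower and 6 higher in CEFT on day 3, 2 lower and 1 higher in ENRO, 1 lower in FLOR, 1 lower in OXYT, 4 lower and 1 higher in TILD and 0 in TULA. In CEFT these included CBL, the ubiquitin ligase related to CBLB, at a log2 fold change of -0.47 (FDR 0.0460), and TAB2, an adaptor of the kinase TAK1, at -0.44 (FDR 0.0612). CBL was also called in ENRO (-0.36, FDR 0.0859) and FLOR (-0.36, FDR 0.0537). ENRO further had MAP2K2, a kinase of the Ras branch, at 0.45 (FDR 0.0519) and THEMIS, which tunes LCK signaling, at -0.64 (FDR 0.0871), and in TILD the 3 of smallest p were MAP3K7 (TAK1) at -0.39 (FDR 0.0800), the Ras exchange factor SOS2 at -0.33 (FDR 0.0801) and the kinase PDPK1 at -0.28 (FDR 0.0831). The median log2 fold change of the 59 lay between -0.05 and 0.01 in the 6 treatments. Of 10 genes induced by T-cell activation (FOS, JUN, IL2, IFNG, IL2RA, CD69, CD40LG, EGR1, EGR2 and NR4A1), 1 was called on day 3, IL2RA in ENRO, which was higher (0.90, FDR 0.0449).

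From day 7 on, no member was called in any of the 24 comparisons with NC, in which between 0% and 0.262% of all genes were called (0.115%, 0.199%, 0.0945% and 0.115% in TILD on the 4 later days in order, 0.262% in CEFT on day 14, 0.0105% in OXYT on day 56, and at most 0.0157% in each of the others). Between 0 and 11 members of a comparison had an unadjusted p under 0.05, with the most in TILD on day 14. DESeq2 called 21 members over these comparisons, and a joint fit of the 42 libraries of each day called 13. Without NC replicate 1, the comparison of TILD on day 21 gave 10 called members in place of 0. For PAG1, the NC median was 183 CPM on day 3, but by day 14 it was 128 and by day 56 it was 119. The plot of group means over days shows this beside PTPRC and NFATC2.

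**Figure D3:**
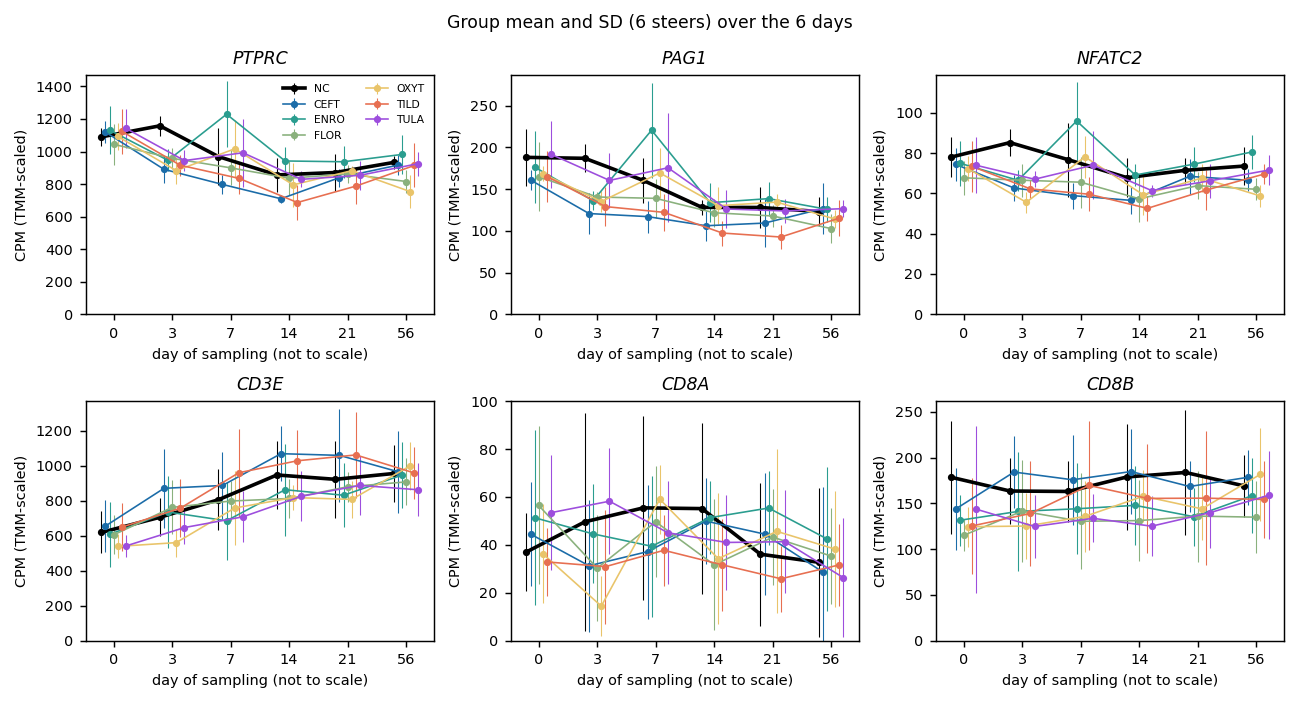
Group means with SD (6 steers) of 6 members, chosen after their values were seen, are plotted in TMM-scaled CPM over the 6 days of sampling, with NC in black. For PTPRC, PAG1 and NFATC2 NC is the highest group on day 3 and ENRO on day 7, CD3E is higher on day 56 than on day 0 in every group, and CD8A has wide SDs.

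Most members differed between days. With each of the 42 steers as its own block, 36 of 38 members differed between days at an FDR of 0.05, where 77% of all genes did, and the exceptions were CD8A (FDR 0.179) and NFATC3 (FDR 0.516). On day 56, 21 members were higher and 14 lower than on day 0, where 32.5% of all genes were higher and 30.7% lower. All 4 receptor chains, 4 of 5 kinases and 5 of 7 coreceptors and accessory receptors were higher on day 56, whereas 5 of 8 adaptors and effectors, both of BCL10 and MALT1 and 3 of 5 negative regulators were lower. In the NC steers alone the direction was checked for each member only on the day of its largest change. Among members checked on day 56, it turned for the kinase ZAP70 (from 0.25 to -0.0656) and for CD8B, neither of which was called there. Day 3 had 9 members lower and 13 higher (18.3% and 20.5% of all genes) and day 7 had 7 and 22 (19.7% and 24%). Day 14 had 12 and 19 (29.9% and 32.7%) and day 21 had 13 and 20 (31.6% and 32.6%). Day cannot be told apart from the age of the steers and the time since arrival. All steers but those of NC were dosed after the day 0 blood, so for them day also cannot be told apart from the drug. In the NC steers alone, which are fewer, 0 members were called on day 3 (0.0262% of all genes).

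**Figure D4:**
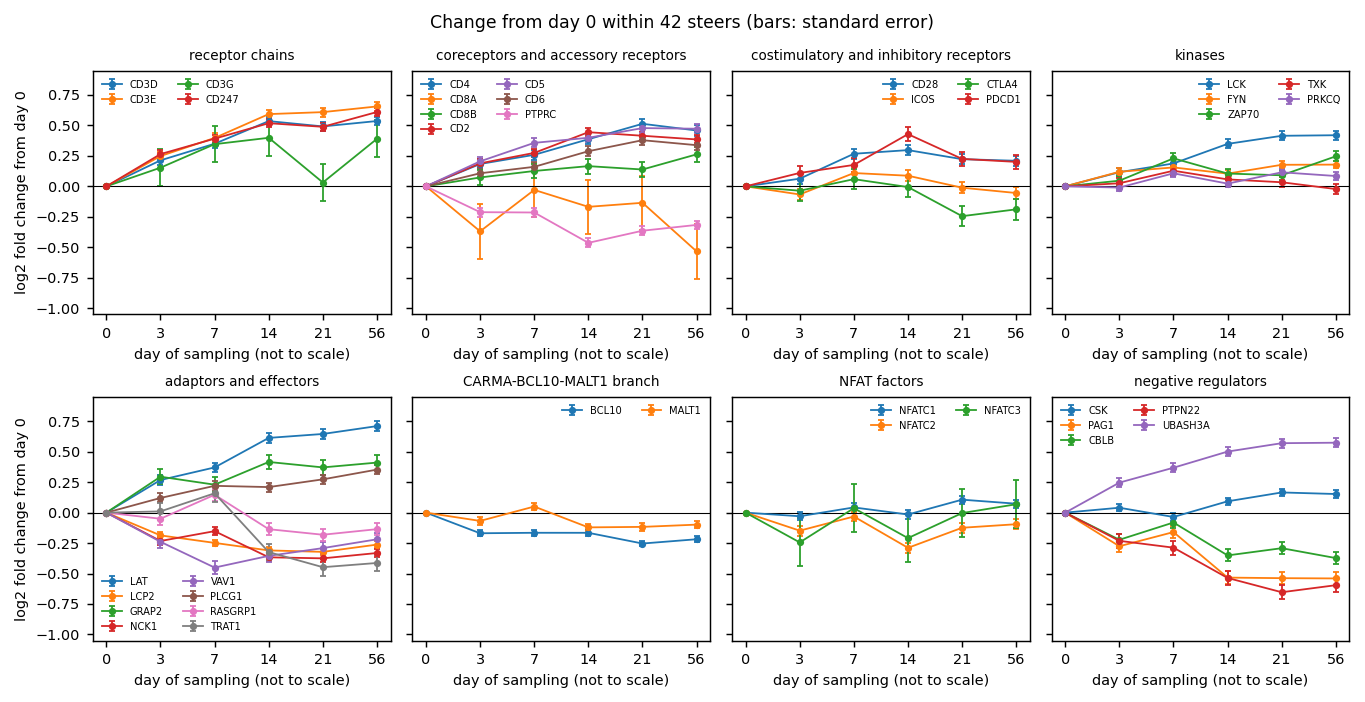
The log2 fold change from day 0 with its standard error, from the fit with steer as a block (42 steers), is plotted for each member by role over the days of sampling (spaced evenly, not to scale). CD3D, CD3E, CD247 and LAT climb to 0.54, 0.66, 0.61 and 0.71 on day 56, while PAG1, PTPN22 and PTPRC are at -0.54, -0.60 and -0.32.

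The largest rise was that of LAT, the membrane scaffold. Over the 42 steers it ran from 89.1 to 226 CPM on day 0 with a median of 124, and from 153 to 323 CPM on day 56 with a median of 203, a fold of 1.64 (log2 0.71, SE 0.04, FDR 2.7e-40) seen in 42 of 42 steers. CD3E, the chain of CD3 that pairs with both CD3D and CD3G, had medians of 585 CPM on day 0 and 915 on day 56, a fold of 1.58 (log2 0.66, SE 0.04), again in 42 of 42 steers. CD247 went from 280 to 434 CPM (fold 1.53, log2 0.61, SE 0.03) and CD3D from 303 to 424 CPM (fold 1.45, log2 0.54, SE 0.03), each in 42 of 42 steers. UBASH3A, a suppressor of receptor signaling in T cells, rose from a median of 66.5 to 103 CPM (fold 1.49, log2 0.57, SE 0.04, 42 of 42 steers). The other negative regulator that was higher on day 56 was CSK (log2 0.15). The coreceptor CD4 peaked on day 21, from a median of 247 to 366 CPM (fold 1.43, log2 0.51, SE 0.04, 39 of 42 steers). The ranges on day 0 and on the later day overlapped for all 6, but within steers nearly every pair moved up.

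The largest fall was that of PTPN22, the phosphatase that dephosphorylates LCK and ZAP70. Its median was 41.4 CPM on day 0 (28.2 to 110) and 27.8 on day 21 (17.8 to 44.2), a fold of 0.636 (log2 -0.65, SE 0.06, FDR 1.04e-21), and 2 of 42 steers were higher. PAG1 was at a median of 169 CPM on day 0 and 119 on day 56 (log2 -0.54, SE 0.05, 1 of 42 steers higher). PTPRC was at 1110 CPM on day 0 and 811 on day 14 (log2 -0.46, SE 0.04, 2 of 42 steers higher). VAV1, a guanine nucleotide exchange factor, was lowest on day 7, at 223 CPM against 303 on day 0. TRAT1, a small transmembrane adaptor of the receptor, was at 52 CPM on day 0 and 38 on day 21 (log2 -0.45, SE 0.07, 5 of 42 steers higher). NCK1 was at 62.6 CPM on day 0 and 49.1 on day 21, and was lower in all 7 groups on average on each of days 14, 21 and 56. The smallest ranges over days were those of PRKCQ, NFATC1 and TXK, whose means stayed within 0.15 of day 0 on the log2 scale.

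CD8A and CD8B encode the chains of the CD8 coreceptor and did not move together. CD8B had medians of 125 CPM on day 0 and 154 on day 56, while those of CD8A were 44.8 and 27.8 CPM, with a range from 1.73 to 99.3 CPM over steers on day 56. The log2 change of CD8B by day 56 was 0.26 in all steers and -0.0512 in the NC steers alone. The ratio of CD8A to CD8B CPM had a median of 0.386 on day 0 and of 0.188 on day 56, and was lower than on day 0 in 28 of 42 steers. This pair was chosen after its values were seen, the spread of CD8A between steers was far wider than that of CD8B, and the log2 change of CD8A by day 56 was -0.53 with an SE of 0.23 (FDR 0.0333), although its test over all days did not pass.

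Fewer members, and fewer of all genes, were called in subsets of the steers. In the NC steers alone, 16 of 38 members had an effect of day (27.6% of all genes), and the members called were 2 on day 7 (2.2%), 19 for day 14 (25.9%), 17 for day 21 (20.4%) and 18 for day 56 (25.7%). On day 3, 8 members were called in the steers of lane 1 (5.32%), 16 in those of lane 2 (22.1%) and 18 in those of lane 3 (21.9%). Day 7 had 17 (14.1%), 17 (32.6%) and 25 (26.9%) in the same order, and day 56 had 27 (43.7%), 26 (46.9%) and 27 (47.5%). Lists of other cell types moved over the same days. On day 56, 30.7% of all genes were lower than on day 0 and 32.5% higher. Lower were 5 of 10 neutrophil, 7 of 9 monocyte and 6 of 9 NK and cytotoxic markers, while 2 NK and cytotoxic markers were higher. Higher were 4 of 5 WC1, 6 of 10 B-cell and 4 of 6 eosinophil and basophil markers, while 2 B-cell markers were lower. The median log2 change was -0.66 for the monocyte list and 1.14 for the WC1 list. The sum of the WC1 markers had a median of 182 CPM on day 0 and 380 on day 56, and that of the neutrophil markers 2561 and 1716 CPM. Their part in the change of the members was not tested.

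Compared with NC, the change from day 0 differed in 12 cases after day 3. In ENRO on day 7, 8 members rose relative to NC, where 4.29% of all genes were called in that direction and 9.4% in either. They were FYN (difference of change 0.28), ZAP70 (0.45), PLCG1 (0.44), RASGRP1 (0.57), MALT1 (0.28), NFATC2 (0.38), PAG1 (0.54) and CBLB (0.44). The smallest p was that of PLCG1, the phospholipase that starts the calcium and Ras branches, which rose in 6 of 6 ENRO steers by 0.24 to 0.91 (median 0.47) and changed by -0.36 to 0.26 (median 0.11) in NC steers (SE 0.13, FDR 0.0338). RASGRP1 went up in 6 of 6 ENRO steers (median 0.47) and in 2 of 6 NC steers (SE 0.17, FDR 0.0388), and PAG1 in 4 of 6 ENRO steers, by up to 1.25, and in 1 of 6 NC steers (SE 0.17, FDR 0.0395). ZAP70 went up in 6 of 6 ENRO steers (median 0.49; SE 0.14, FDR 0.0438), NFATC2 in 5 of 6 (median 0.24; SE 0.13, FDR 0.0587) and FYN in 6 of 6 (median 0.25; SE 0.10, FDR 0.0803). The levels of the same members on day 7 were not called against NC, where for PAG1 ENRO steers ran from 174 to 330 CPM and NC steers from 118 to 195, and so overlapped. The neutrophil list had a median log2 difference of ENRO from NC of 0.77 on day 0 and -0.69 on day 7. On day 7 this median was below 0 in every treatment, from -0.36 in TILD to -0.92 in OXYT. With group and day means removed, the 8 members had correlations with the neutrophil list from -0.42 (MALT1) to -0.20 (FYN). The part of neutrophils in these changes was not tested.

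In OXYT on day 56, CD3D, ICOS and ZAP70 had risen relative to NC, where 1.34% of all genes were called in that direction and 2.21% in either. CD3D was higher than on day 0 in 6 of 6 OXYT steers (median change 0.84) and in 6 of 6 NC steers (median 0.44), with a difference of 0.43 (SE 0.12, FDR 0.0464). ICOS, a costimulatory receptor of activated T cells, rose in 5 of 6 OXYT steers and in 2 of 6 NC steers, with a difference of 0.52 (SE 0.17, FDR 0.0975), and ZAP70 in 6 of 6 and 2 of 6 (0.47, SE 0.14, FDR 0.0709). All 3 started lower in OXYT than in NC on day 0, with median levels of 265 against 348 CPM for CD3D, 23.5 against 30.5 for ICOS and 195 against 304 for ZAP70. In TILD on day 21, TRAT1 was lower than on day 0 in 6 of 6 steers (median -0.96) and in 4 of 6 NC steers (median -0.14), a difference of -0.93 (SE 0.24, FDR 0.0543), where 2.74% of all genes were called lower and 3.24% in either direction, so that 1 member of 38 lies near the background. TILD steers ran from 15.6 to 48.2 CPM on day 21 and from 31.3 to 72.8 on day 0. No member was called in CEFT, FLOR or TULA after day 3. Without the steer block no member was called in any of these comparisons of change.

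Averaged over all 6 days, in a limma voom fit that took the steer as random, 12 differences from NC passed an FDR of 0.05, all of them lower in the treated group. They were MALT1 in CEFT (1.83% of all genes called lower), CD6, ICOS and PDCD1 in FLOR (0.777%), PDCD1, FYN, RASGRP1, MALT1, NFATC2 and PAG1 in TILD (2.13%), and CD3G and PDCD1 in TULA (0.31%). In either direction, 651 of 19056 genes were called in CEFT, 297 in FLOR, 949 in TILD and 124 in TULA. The 1 member of 38 in CEFT thus lies near the background. ENRO (0.231%) and OXYT (0.373%) had 0, although in OXYT NFATC2 was at -0.21 (SE 0.08, FDR 0.211). The largest was CD3G in TULA at -1.26 (SE 0.32, FDR 0.0280). CD6, an adhesion receptor that modulates T-cell activation, was at -0.55 in FLOR (SE 0.10, FDR 0.000341), ICOS at -0.45 (SE 0.10, FDR 0.00477) and PDCD1 (PD-1) at -0.50 (SE 0.12, FDR 0.0120), MALT1 in TILD at -0.32 (SE 0.07, FDR 0.000412) and in CEFT at -0.26 (SE 0.07, FDR 0.0115). The others in TILD were PDCD1 at -0.45 (FDR 0.0210), PAG1 at -0.35 (FDR 0.0200), RASGRP1 at -0.34 (FDR 0.0382), NFATC2 at -0.26 (FDR 0.0281) and FYN at -0.23 (FDR 0.0394), and PDCD1 in TULA was at -0.49 (FDR 0.0232). Several of these stood at similar values before dosing. On day 0 the log2 differences from NC were -0.57 for CD6, -0.61 for ICOS and -0.55 for PDCD1 in FLOR, -0.72 for PDCD1 in TILD, and -0.80 for CD3G in TULA, none of them called on that day. With days 3 to 56 alone, 13 differences passed, among them 9 of the 12, while 3 of the 12 no longer passed. After ComBat_seq by lane 0 passed, without a filter on low counts 30 passed, and with no replicate block for the steer 88 passed.

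Within a group and day, the members did not vary as a block. Over all libraries (42 steers on 6 days), after removal of the mean of each group on each day, the 703 pairs of members had a median Pearson correlation of 0.16, with a range from -0.54 to 0.93. These libraries share steers over days and the lists share libraries, so the values are descriptive. CD3E was most like CD3D (0.93), LAT (0.91), UBASH3A (0.86), LCK (0.82) and CD2 (0.81), and these values were at least 0.74 within each of the 3 lanes. PTPRC was most like NFATC2 (0.60), NCK1 (0.59) and PAG1 (0.56) and had a correlation of -0.07 with CD3E. ZAP70, by contrast, had 0.30 with PTPRC, 0.56 with CD3E and 0.69 with CD247, and MALT1 had 0.40 with PTPRC and 0.01 with CD3E. CD3G had a correlation of 0.16 with CD3E, CD8A of 0.24 and NFATC3 of 0.00.

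**Figure D5:**
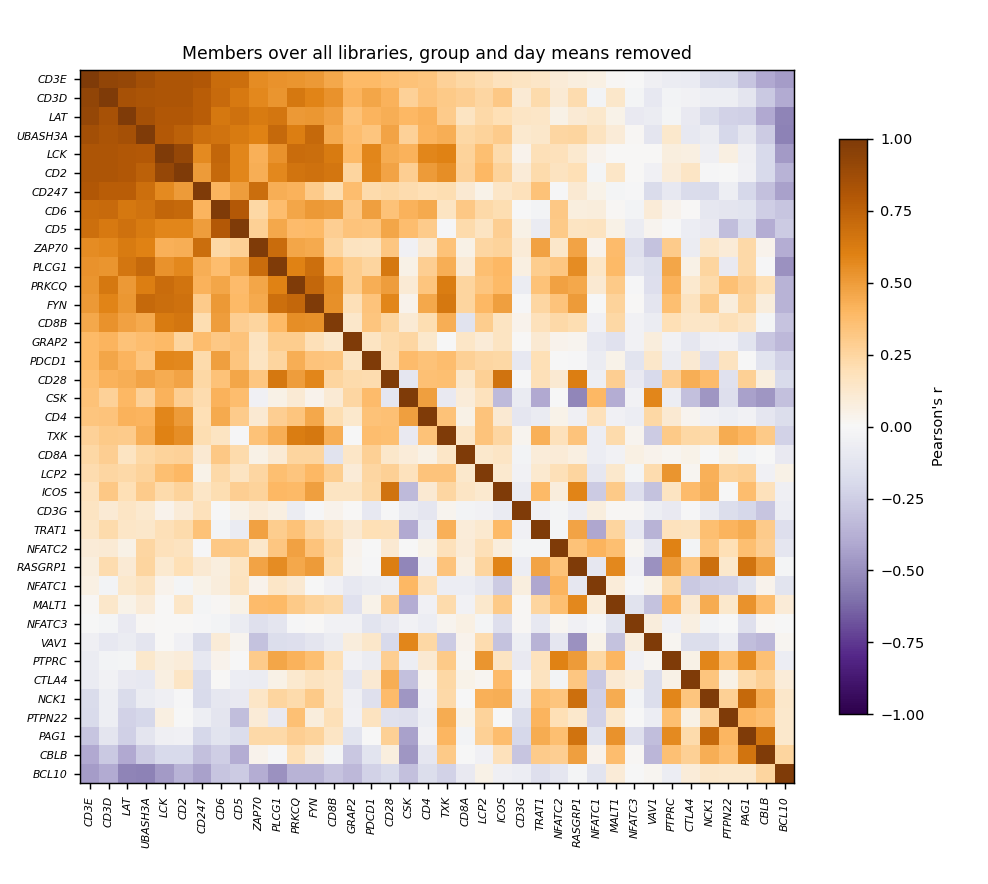
Pearson's r between members over the libraries of 42 steers on 6 days, with group and day means removed, is shown in colour with members ordered by their correlation with CD3E. CD3D, LAT, UBASH3A, LCK and CD2 form a block with CD3E above 0.8, while BCL10, at the other end, is at -0.45 with CD3E.

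Several members varied with markers of other cells, measured against the log2 of the summed CPM of each list. Such a sum is carried mostly by the most abundant genes of the list. GRAP2, the adaptor that joins LCP2 to LAT, had a correlation of 0.78 with the platelet list and 0.39 with CD3E. TXK, a Tec family kinase, had 0.77 with the NK and cytotoxic list and 0.27 with CD3E. ZAP70 had 0.74 and CD247 0.72 with the WC1 list, VAV1 had 0.52 with the neutrophil list and -0.05 with CD3E, and NFATC1 and BCL10 had 0.42 and 0.37 with the B-cell list. CSK had 0.74 with the list of other pathway genes. GRAP2 also differed between lanes, with 0.72, 0.32 and -0.06 against CD3E on lanes 1, 2 and 3. Whether these correlations bear on the differences from NC was not tested.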

How the data were processed

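Whole blood in PAXgene tubes was collected from 42 steers on 6 days, and the libraries, 1 for each steer and day, were sequenced on 3 lanes. The authors checked reads with FastQC (0.11.9), trimmed them with Trimmomatic (0.39), aligned them to the ARS-UCD1.3 assembly with HISAT2 (2.1.1), assembled and quantified transcripts with StringTie (2.2.0) and deposited a gene table of whole-number counts. These versions come from the submitters' processing notes, which also name edgeR 3.36.0, and the study's methods give other versions for HISAT2 and edgeR. The deposited counts were derived from transcript coverage at a read length of 150 and are not normalized. The table was mapped to steers and days by its column names, and no pair of libraries was identical.

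Genes above 0.2 CPM in at least 12 libraries were kept (19056 of 33282), and counts were scaled by TMM. For every day, the 6 libraries of a treatment and the 6 of NC were fitted together and tested with the quasi-likelihood method of edgeR (4.0.16, R 4.3.3), with Benjamini-Hochberg adjustment over all genes tested and an FDR of 0.1. Day comparisons and the change from day 0 against NC used steer as a fixed block, since the same animal was sampled on each day, with an FDR of 0.05 for day. The group effect over all days was fitted by limma voom (3.58.1) with steer as a random block (correlation 0.359), in place of the mixed model of the study, at an FDR of 0.05. Steer numbers do not pair animals between treatments. Alternatives were DESeq2 (1.42.0), ComBat_seq by lane (sva 3.50.0), a lane term, no filter, no replicate block and leaving out each steer on day 3.

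The default quasi-likelihood form of edgeR was made the main test in place of the newer form after the counts of called members under both were seen. In 7 simulated data sets of 6 CEFT against 6 NC libraries with 200 of 19056 genes changed, the share of false calls at an FDR of 0.1 averaged 9.73% for the default form (3.06% to 18.3%), 17.2% for the newer form (10% to 23.1%) and 40.8% for DESeq2 (35% to 45.1%). The default form found on average 66.3% of the genes changed 2-fold.

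The members, gene lists and tests were chosen with earlier results of these data known. Values are given for members past the threshold on day 3 (the 6 of smallest p in a comparison, or the 3 of smallest p where none passed; others are named too), the 6 largest rises, 6 largest falls and 3 smallest ranges over days, members past the threshold in the other tests (at most 6 of smallest p in full), and the 3 called genes of smallest p among the other pathway genes, some of which are not reported here. The genes plotted by steer and by group were chosen after their values were seen. Sequences and coordinates were not used here.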

Additional observations from a re-analysis of the deposited data

Results flagged for a closer look

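Among the 40 groups of 6 steers checked on day 3, 4 held a steer far from the other 5, and chance alone flags about 1 in 20 groups. CTLA4 stood at 3.76 CPM in FLOR replicate 3, where the next steer had 2.22. RASGRP1 stood at 102 CPM in NC replicate 1, where the next steer had 134. CD3G stood at 9.42 CPM in OXYT replicate 5, where the next steer had 4.73, and PTPRC stood at 817 CPM in TULA replicate 3, where the next steer had 935.

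The change from day 0 differed from that of NC, by the test of the difference itself, for 13 values. PTPRC on day 3 differed by -0.42 in CEFT. In ENRO on day 7 the differences were 0.28 for FYN, 0.45 for ZAP70, 0.44 for PLCG1, 0.57 for RASGRP1, 0.28 for MALT1, 0.38 for NFATC2, 0.54 for PAG1 and 0.44 for CBLB. In OXYT on day 56 they were 0.43 for CD3D, 0.52 for ICOS and 0.47 for ZAP70. TRAT1 on day 21 differed by -0.93 in TILD.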

How the results depend on the processing

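On day 3, the members called without a filter on low counts were 4 in CEFT and 1 in FLOR. ComBat_seq by lane gave 0 in CEFT, FLOR, OXYT and TILD, and with a likelihood ratio test it gave 0 in CEFT, FLOR and TILD, 2 in ENRO and 3 in OXYT. A lane term gave 0 in CEFT, FLOR, OXYT and TILD. DESeq2 gave 9 in ENRO, 8 in FLOR, 7 in TILD and 4 in TULA, 1 on day 0 and 21 on days 7 to 56, where 1 fit of the 42 libraries, chosen after the data were seen, gave 13. The newer edgeR form, also added after the data were seen, gave 9 in CEFT, 8 in OXYT, 5 each in ENRO and FLOR, 4 in TILD and 0 in TULA on day 3. Leaving out 1 steer gave 0 to 10 in CEFT, 1 to 7 in ENRO, 1 to 3 in FLOR, 2 to 7 in OXYT, 0 to 4 in TILD and 0 in TULA, and 0 to 10 for TILD on day 21 (10 without NC replicate 1). Over days, lane 1 alone gave 8 members on day 3 and 17 on day 7, lane 2 alone 17 on day 7, and NC alone 0, 2, 19, 17 and 18 in order of the 5 later days, with 16 members that had any effect of day. Directions were checked for each member only on the day of its largest change from day 0. They turned in NC alone for CD8B (-0.0512) and ZAP70 (-0.0656) on day 56, ICOS on day 7 (-0.0676), PRKCQ on day 21 (-0.0464) and NFATC3 on day 3 (0.27). In lane 2 alone they turned for TXK on day 7 (-0.0146) and NFATC3 on day 3 (0.10). With no replicate block, the change from day 0 gave 0 members on day 3 and 0 on days 7 to 56, and the group effect gave 88. The group effect gave 0 after ComBat_seq and 30 without a filter. NC steers alone and single lanes hold fewer steers, and the cause of the other changes was not tested. Leaving out steers was not run for the change from day 0, the day effect or the group effect. Few counts limit CTLA4 and CD3G most (medians of 118 and 419 counts). NFATC3 had a median of 1102 counts but 0 in its lowest library.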
